A study of Homo sapiens with 12 samples.

Results

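The 309 genes described here are the long intergenic noncoding RNAs (lincRNAs, by the biotype that the deposited table gives; such genes are defined as lying outside protein-coding genes and carrying no recognised reading frame, which did not hold for every member, as given with the annotation) that were expressed in U-2932 cells, an established line of human diffuse large B-cell lymphoma. They were chosen by level alone, from 60675 genes: the file's biotype had to be lincRNA (7668 genes), the gene had to lie on an autosome (7473 genes), and the mean CPM over all 12 libraries (the gene's count set against the total count of its library, with no other scaling for this rule) had to be at least 1 (322 genes). Symbols starting MIR (8 genes) or SNHG (5 genes) were then left out; GAS5, ZFAS1 and DLEU2, which the rule also names, removed no further gene. The genes just inside the limit were AC144831.1 at 1.014 CPM, AC005224.2 at 1.017, GS1-124K5.4 and CTD-3113P16.11 at 1.018 and RP11-798G7.6 at 1.019. Those just outside it were CTC-444N24.8 at 0.9959, RP11-549K20.1 at 0.9887, RP11-422P24.11 at 0.9857, LCMT1-AS1 at 0.9811 and RP11-10N16.2 at 0.981. All 309 entered the test across 15112 genes, of which 11670 were protein-coding. Since the rule averages treated and untreated libraries, a lincRNA could pass through 1 condition only: 46 members were below 1 CPM in both IgM groups but not when untreated, and 11 the other way round. The counts of members that rose or fell are therefore descriptions of this selection.

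The study asked how a form of Roquin2 with phenylalanine in place of tyrosine (Y691F) changes RNA levels when the B-cell receptor is stimulated. RC3H2 encodes Roquin2, which binds stem-loops in mRNAs and brings about their decay, and the exchanged tyrosine is known as a site through which the ubiquitin ligase adaptor KLHL6 recognises it. Each of 4 groups had 3 biological replicates: cells stably expressing Roquin2 WT or Roquin2 Y691F, each left untreated or stimulated with F(ab')2-IgM, which cross-links the receptor, at 10 µg/ml for 12 h. The labels name no deletion of the cells' own RC3H2 in any group. All cells grew in the same serum-containing medium, and polyadenylated RNA was sequenced with strand information. The labels do not say whether the stable cells were clones or pools, so a difference between them cannot be told apart from a difference between the 2 derived populations.

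LincRNAs are transcribed by RNA polymerase II, and most are capped, spliced and polyadenylated like mRNAs. Many stay in the nucleus and are removed there by the RNA exosome, while a few are very stable and abundant. MALAT1 accumulates in nuclear speckles and NEAT1 builds the paraspeckles. NORAD (LINC00657 in the file) is an abundant cytoplasmic RNA known for its part in keeping chromosomes stable. Several others are known mainly as the primary transcripts of microRNAs or as the divergent partner of a coding gene's promoter.

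Library totals ran from 16465393 to 21478790 counts, and no library stood apart. RC3H2 measured 109 to 123 CPM in the 6 WT libraries and 204 to 209 CPM in the 6 Y691F libraries, so total Roquin2 RNA differed along with the form expressed, and the parts of form and amount cannot be told apart. From here on, CPM are scaled by TMM factors. The 6 B-cell markers summed to 3230 to 3280 CPM in untreated WT, 2200 to 2240 in WT with IgM, 2830 to 2850 in untreated Y691F and 2130 to 2180 in Y691F with IgM. T and NK markers summed to 4.48 to 14.2 CPM with 2 of 7 genes at 0 in all libraries, myeloid markers to 0.81 to 1.58 CPM with 1 of 6 at 0, and fibroblast and epithelial markers to 19.4 to 26.6 CPM with 3 of 6 at 0. In bulk RNA, fewer cells expressing a gene and less RNA per cell cannot be told apart.

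Most members were rare. Compared per length on the deposited RPKM values, their median was 1.22 against 4.31 for tested protein-coding genes, 175 of 309 reached 1 RPKM and 6 reached 10, and the range was 0.0553 to 43.4. MALAT1 was highest at 43.4 RPKM, averaged over all 12 libraries. LINC01480 followed at 24.1, RP11-159G9.5 (a transcript spanning CGGBP1 on the other strand) at 20.9, NORAD at 14.3, LINC00152 (CYTOR) at 12.8 and EBLN3 (EBLN3P, a bornavirus-derived pseudogene) at 10.3. Below 10 RPKM came CTB-193M12.5 at 9.205, RP11-160O5.1 at 8.56, RP11-132N15.3 (LINC01991) at 8.28 and RP11-16E12.2 (LINC03034) at 8.11. CTB-193M12.5 lies within NDE1 on the same strand, so its reads may include unspliced NDE1 RNA. By CPM, 117 members lay between 1 and 2 and 49 at 10 or above. In GENCODE release 29, 272 of the 309 are still lincRNAs, 7 are protein-coding, 9 are transcribed unprocessed pseudogenes and 8 were not matched by identifier. The median exonic length was 2538 bases, and 102 of the 301 with exon records have a single exon.

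Together the members took 0.22 to 0.258% of all counts in every library. That total hid opposite movements: MALAT1 alone held 0.0259 to 0.0357% of counts in the 6 untreated libraries and 0.055 to 0.0727% in the 6 with IgM. With MALAT1 and NEAT1 taken out, the rest held 0.187 to 0.212% in untreated libraries and 0.159 to 0.168% with IgM, ranges that do not overlap.

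**Figure D1:**
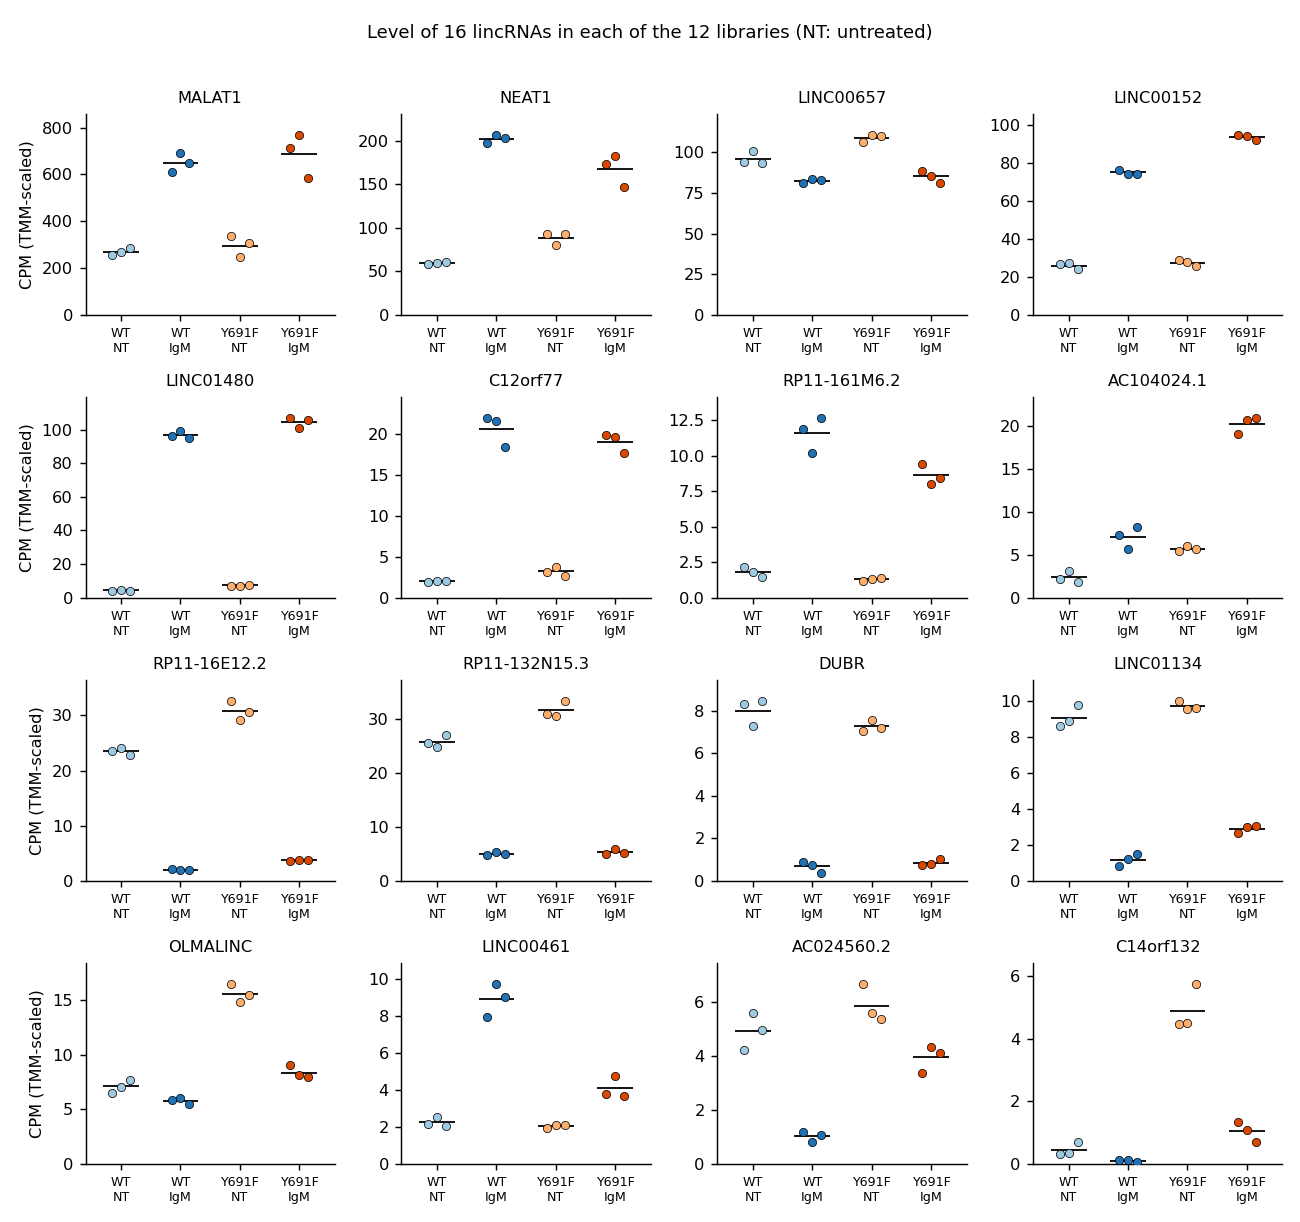
Level of selected members in each of the 12 libraries (TMM-scaled CPM, linear axes from 0, 1 panel per gene), with 1 point per library and a line at the mean of the 3 libraries of a group. MALAT1, NEAT1, LINC00152 and LINC01480 sit higher in the IgM libraries of both kinds of cells, RP11-16E12.2, RP11-132N15.3, DUBR and LINC01134 sit lower, and OLMALINC and C14orf132 sit higher in untreated Y691F than in untreated WT cells.

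IgM lowered more of these lincRNAs than it raised. In WT cells 71 members rose and 149 fell at an adjusted p under 0.05, 22.98% and 48.2% of the 309, where 38.4% of all tested genes rose and 38.5% fell. In Y691F cells 62 rose and 166 fell, 20.1% and 53.7%, against 37.1% and 38.7% of all tested genes. At a change of at least 2-fold, 32 rose and 68 fell in WT cells (background 8.91% and 15.8%) and 31 rose and 81 fell in Y691F cells (background 8.07% and 14.4%). The median log2 change over members was -0.33 in WT and -0.48 in Y691F cells, beside 0.0016 and -0.011 over all tested genes. The other 988 tested lincRNA and antisense genes had 15.28% higher and 47.67% lower in WT cells (median -0.54) and 13.66% and 52.53% in Y691F cells (median -0.65), more falls than rises there as well. Of the 220 members called in WT cells, 205 had IgM and untreated libraries that did not overlap, and 210 of 228 in Y691F cells. Overlap was counted for members only, so no share over all tested genes can be set beside these counts. The test throughout is edgeR's quasi-likelihood test with Benjamini-Hochberg adjustment over all tested genes.

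Most calls were shared by the WT and Y691F cells. The IgM comparisons use separate libraries, and 55 members rose in both, 135 fell in both, 64 passed in 1 kind of cells only and 53 in neither. Joint calls were counted for members only, so whether this sharing differs from that of all tested genes was not tested. Only NUP50-AS1 and RP11-866E20.3 were called in opposite directions, higher in WT and lower in Y691F. RP11-866E20.3 had log2 changes of 0.93 (adjusted p = 0.00511) in WT and -0.79 (adjusted p = 0.00743) in Y691F cells. Its IgM calls were not followed through the alternatives. Both calls of NUP50-AS1 were lost under several alternatives, with adjusted p from 0.0164 to 0.336 in WT and 0.000196 to 0.231 in Y691F cells, among them without WT replicate 3 untreated (0.20, adjusted p = 0.0601) or with IgM (0.18, adjusted p = 0.0943), and without untreated Y691F replicate 2 (-0.22, adjusted p = 0.0527) or 3 (-0.18, adjusted p = 0.132) or Y691F replicate 3 with IgM (-0.14, adjusted p = 0.231). As a description over the 309 members, which share library depth and composition, the log2 changes correlated with Pearson's r of 0.92 and Spearman's rho of 0.896, and 271 had the same sign.

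**Figure D2:**
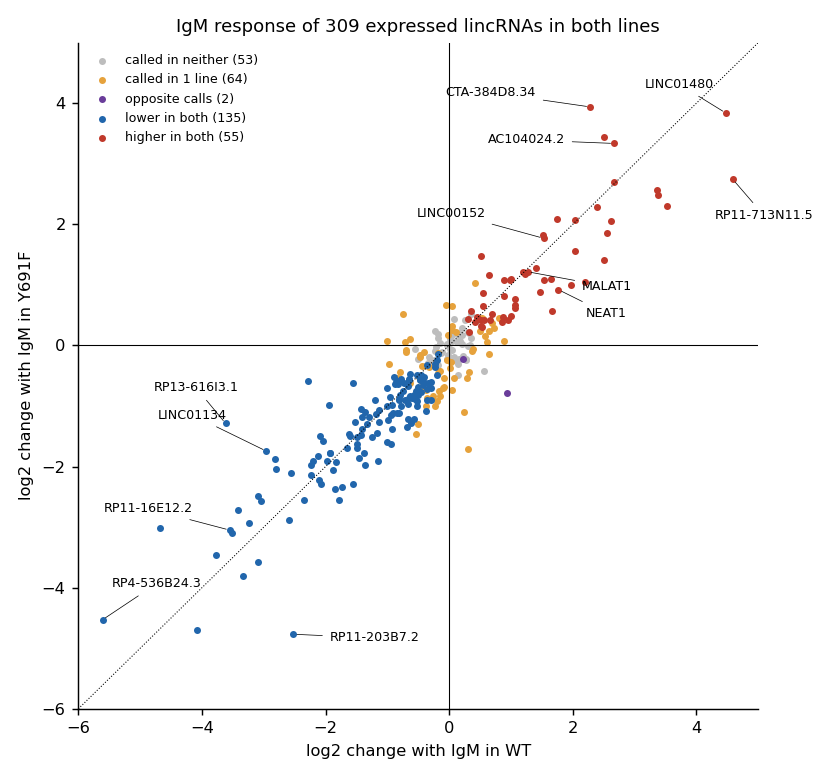
Log2 change with IgM in WT cells (x axis) against Y691F cells (y axis), 1 point per member, coloured by the calls in both comparisons, with a dotted line of equal change. The points run along the diagonal, 135 members in the lower left are called lower in both and 55 in the upper right higher in both; RP11-203B7.2 and RP13-616I3.1 lie off the diagonal on either side.

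The abundant nuclear RNAs MALAT1 and NEAT1 both rose. MALAT1 (chr11:65497762-65506516, plus strand) measured 257, 269 and 283 CPM in untreated WT libraries, 609, 690.995 and 649.9 in WT with IgM, 336, 247 and 305 in untreated Y691F and 712, 767 and 584 in Y691F with IgM. Every IgM library exceeded every untreated one. The log2 change was 1.27 ± 0.13 (SE, adjusted p = 1.67e-05) in WT and 1.22 ± 0.13 (SE, adjusted p = 2.13e-05) in Y691F cells, 2.41-fold and 2.32-fold, and the Y691F and WT cells overlapped under both conditions. The mature end of MALAT1 carries no poly(A) tail, so poly(A) selection may recover it in part. NEAT1 (chr11:65422774-65445540, plus strand) measured 58.5, 59.5 and 60.3 CPM in untreated WT libraries, 197, 206 and 203 in WT with IgM, 92.6, 80.6 and 93.1 in untreated Y691F and 173, 183 and 147 in Y691F with IgM. The untreated Y691F libraries were above the untreated WT ones, while with IgM all 3 Y691F libraries were below the WT ones. NEAT1 rose by 1.77 ± 0.084 in WT (adjusted p = 1.27e-08) and by 0.92 ± 0.081 in Y691F cells (adjusted p = 2.25e-06), and the difference between these responses passed its own test at -0.85 ± 0.12 (SE, adjusted p = 0.000442). With IgM, Y691F was lower than WT, with a log2 difference of -0.27 ± 0.075 (SE, adjusted p = 0.0172); without WT replicate 2 with IgM this was -0.24 with adjusted p = 0.0585, the highest over its alternatives, which began at 8.10e-12. One count per gene does not separate the short polyadenylated NEAT1 isoform from the long one that paraspeckles need. Between them on the same strand lies CMB9-22P13.1 (FAUP4, a pseudogene in the current annotation, chr11:65455258-65466720, plus strand), chosen after its values were seen. It measured 14.6, 12.95 and 14.8 CPM in untreated WT libraries, 8.86, 8.64 and 8.799 in WT with IgM, 17.9, 17.7 and 15.5 in untreated Y691F and 10.7, 10.9 and 11.22 in Y691F with IgM. It fell in both kinds of cells, with a log2 change of -0.68 ± 0.089 and -0.64 ± 0.081 (adjusted p = 1.18e-10 and 4.25e-11), so 3 neighbouring members on chromosome 11 did not move as a block.

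LINC00152 (CYTOR, chr2:87455368-87606805, plus strand) is a spliced lincRNA whose newer symbol stands for cytoskeleton regulator RNA. It measured 26.5, 27.4 and 23.98 CPM in untreated WT libraries, 76.6, 74.5 and 74.2 in WT with IgM, 28.8, 27.8 and 25.9 in untreated Y691F and 94.7, 94.6 and 92.2 in Y691F with IgM. The 4 groups separated into 2 untreated ones that overlapped and 2 IgM ones that did not, with Y691F above WT. The log2 change with IgM was 1.53 ± 0.049 (SE, adjusted p = 2.29e-45) in WT and 1.77 ± 0.047 (SE, adjusted p = 1.27e-51) in Y691F cells, and with IgM the Y691F cells were higher by 0.32 ± 0.041 (SE, adjusted p = 2.45e-10). A near-identical copy of this gene lies elsewhere on chromosome 2, so its counts may be split between the copies. Its promoter is shown because it is one of 3 among the rising members that hold the AP-1 letters TGACTCA or TGAGTCA, and RP11-540A21.2 (LINC02709) is another. The RefSeq windows on GRCh38.p14 run from 250 bases before to 50 after the start, 5′ to 3′ on the gene's strand, chr2:87455177-87455476 (plus) and chr11:9759484-9759783 (minus), with the AP-1 letters on either strand in capitals.

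LINC00152: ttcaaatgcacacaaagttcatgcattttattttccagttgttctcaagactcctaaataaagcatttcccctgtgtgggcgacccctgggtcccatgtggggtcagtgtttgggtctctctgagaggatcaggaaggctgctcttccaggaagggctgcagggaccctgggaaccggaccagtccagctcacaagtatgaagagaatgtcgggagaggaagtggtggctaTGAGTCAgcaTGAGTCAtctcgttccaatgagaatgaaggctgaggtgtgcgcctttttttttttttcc

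RP11-540A21.2: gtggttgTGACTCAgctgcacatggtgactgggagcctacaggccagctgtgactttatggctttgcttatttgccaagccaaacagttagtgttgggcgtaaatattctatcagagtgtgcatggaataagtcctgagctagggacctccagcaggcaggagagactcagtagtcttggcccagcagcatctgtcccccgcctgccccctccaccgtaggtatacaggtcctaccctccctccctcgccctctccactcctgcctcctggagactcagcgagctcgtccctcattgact

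RP11-540A21.2 (chr11:9754770-9759533, minus strand), which lies beside SWAP70 and was chosen after its values were seen, measured 0.954, 1.202 and 1.72 CPM in untreated WT libraries, 6.59, 8.48 and 7.397 in WT with IgM, 1.43, 1.502 and 1.06 in untreated Y691F and 5.23, 4.56 and 4.75 in Y691F with IgM. Its IgM libraries were all above its untreated ones, at 2.55 ± 0.17 (SE, adjusted p = 7.32e-25) in WT and 1.86 ± 0.18 (SE, adjusted p = 6.08e-16) in Y691F cells. Among all 35116 RefSeq promoters of this length, 4.95% hold the AP-1 letters. Of the members, 126 had a promoter in the RefSeq table and 107 of those started within 1000 bases of the file's gene end. The AP-1 letters were in 3 of 15 such promoters of members that rose in both kinds of cells and in 2 of 58 of those that fell in both. The E-box letters CACGTG were in 0 of 15 and 8 of 58, beside 7.26% of all promoters. The NF-kB letters (GGGANTTTC, GGGGNTTTC, GGGANTTCC or GGGGNTTCC) were in 1 of 15 and 4 of 58, beside 6.13%. The CRE letters TGACGTCA were in 0 and 2, beside 1.85%, and the EGR letters GCGTGGGCG in 1 and 1, beside 0.795%. Both strands were searched, the letter sets do not contain one another, and a match is a description of letters only.

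LINC01480 (chr19:41535183-41536904, plus strand) went from a low to a high level with IgM. Per length it ranked 103 among the members in untreated WT and 51 in untreated Y691F cells, and 2 in both IgM groups. It measured 4.13, 4.58 and 4.25 CPM in untreated WT libraries, 96.3, 99.02 and 94.8 in WT with IgM, 7.13, 6.99 and 7.75 in untreated Y691F and 107, 101 and 105 in Y691F with IgM. The IgM libraries lay 22.3-fold above untreated in WT and 14.3-fold in Y691F cells, log2 changes of 4.48 ± 0.066 (SE, adjusted p = 6.61e-71) and 3.84 ± 0.058 (SE, adjusted p = 9.12e-70). Untreated Y691F cells started higher than untreated WT cells by 0.75 ± 0.11 (SE, adjusted p = 2.03e-08), without overlap, and the response in Y691F cells was smaller, with a log2 difference of -0.64 ± 0.12 (adjusted p = 6.15e-06). The nearest coding gene on its strand, CEACAM21, named after its values were seen, starts 12614 bases away and went from 1.84 ± 0.212 to 6.16 ± 0.603 CPM in WT cells (SD, n = 3; log2 change 1.72, adjusted p = 1.71e-16).

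C12orf77 and AC104024.2 were among the largest rises, and both lie near coding genes that rose too. C12orf77 (LINC02909, chr12:24993424-24997519, minus strand) and RP11-713N11.5 lie upstream of LRMP, a lymphoid-restricted membrane protein gene. C12orf77 measured 1.96, 2.05 and 2.01 CPM in untreated WT libraries, 21.97, 21.6 and 18.4 in WT with IgM, 3.17, 3.78 and 2.72 in untreated Y691F and 19.96, 19.7 and 17.7 in Y691F with IgM. Its 6 IgM libraries were all several times above the 6 untreated ones, at 3.36 ± 0.12 (SE, adjusted p = 2.68e-43) in WT and 2.57 ± 0.10 (SE, adjusted p = 4.59e-38) in Y691F cells. RP11-713N11.5, which ends 109 bases before LRMP on the same strand and may hold reads of LRMP transcripts that start early, was nearly silent before IgM, at 0, 0.178 and 0.115 CPM in WT, and measured 2.69, 2.86 and 2.23 with it (log2 change 4.59 ± 0.38 SE, adjusted p = 3.03e-19). LRMP itself went from 318 ± 5.94 to 542 ± 16.03 CPM in WT and from 241 ± 11.3 to 469 ± 12.01 in Y691F cells. AC104024.1 and AC104024.2 (LINC02090) lie beside TNFRSF13B, the gene of the BAFF and APRIL receptor TACI. AC104024.1 (chr17:16975999-16981353, minus strand) measured 2.12, 3.16 and 1.84 CPM in untreated WT libraries, 7.24, 5.67 and 8.16 in WT with IgM, 5.47, 5.95 and 5.69 in untreated Y691F and 19.1, 20.7 and 20.9 in Y691F with IgM. Untreated WT was lowest and Y691F with IgM highest, and only the untreated Y691F and WT with IgM groups overlapped. It rose by 1.52 ± 0.15 (SE, adjusted p = 2.18e-15) in WT and by 1.82 ± 0.10 (SE, adjusted p = 2.88e-29) in Y691F cells. AC104024.2 rose by 2.67 ± 0.38 (SE, adjusted p = 1.06e-09) and 3.34 ± 0.23 (SE, adjusted p = 2.95e-23). TNFRSF13B measured 74.1 ± 1.99 CPM in untreated WT cells, 144 ± 3.598 in WT with IgM, 96.6 ± 4.63 in untreated Y691F and 193 ± 6.61 in Y691F with IgM (SD, n = 3), the same order as AC104024.1.

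Other large rises included several that started below 1 CPM. In WT cells LINC01554, convergent with the elongation factor gene ELL2, went from 0.159, 0.134 and 0.229 to 1.98, 2.27 and 1.79 CPM. AC003092.1 went from 0.52998, 0.801 and 0.459 to 7.48, 6.43 and 5.29 CPM, and ERICD, an E2F1-regulated lincRNA whose start faces that of AGO2, from 0.477, 0.312 and 0.229 to 2.51, 2.21 and 1.59. None of these overlapped between conditions, and the log2 changes were 3.52 ± 0.36, 3.38 ± 0.21 and 2.62 ± 0.30 (adjusted p = 6.40e-15, 8.84e-27 and 1.16e-12). RP11-161M6.2 (CEROX1, known for raising levels of mitochondrial complex I subunits) measured 2.17, 1.78 and 1.43 CPM in untreated WT libraries, 11.9, 10.2 and 12.6 in WT with IgM, 1.196, 1.35 and 1.41 in untreated Y691F and 9.39, 7.99 and 8.43 in Y691F with IgM. The IgM groups stood clear of the untreated ones in both kinds of cells, at 2.67 ± 0.14 (SE, adjusted p = 2.44e-31) in WT and 2.71 ± 0.15 (SE, adjusted p = 2.22e-28) in Y691F. It lies within LMF1 on the same strand, so unspliced LMF1 RNA may be counted with it. LINC01588 led in Y691F cells together with CTA-384D8.34, LINC01480 and AC104024.2: it went from 0.322, 0.155 and 0.403 to 3.002, 3.16 and 3.74 CPM there (3.44 ± 0.28 SE, adjusted p = 2.27e-19). CTA-384D8.34, a short gene beside KLHDC7B, went from 0.368, 0.414 and 0.252 to 5.28, 5.04 and 5.89 CPM in Y691F cells and from 0.159, 0.134 and 0.115 to 0.539, 0.702 and 0.829 in WT.

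IgM lowered several of the better-expressed lincRNAs. RP11-16E12.2 (LINC03034, chr15:31221999-31230838, minus strand) measured 23.5, 24.1 and 22.9 CPM in untreated WT libraries, 2.16, 1.94 and 1.91 in WT with IgM, 32.6, 29.3 and 30.6 in untreated Y691F and 3.61, 3.75 and 3.803 in Y691F with IgM. Each IgM library was far below each untreated one, and Y691F lay above WT under both conditions. The fall was 11.7-fold in WT and 8.28-fold in Y691F cells, log2 changes of -3.55 ± 0.11 (SE, adjusted p = 9.71e-47) and -3.05 ± 0.090 (SE, adjusted p = 3.95e-48). RP11-132N15.3 (LINC01991, chr3:187958775-187976407, minus strand) measured 25.4, 24.7 and 27.02 CPM in untreated WT libraries, 4.79, 5.29 and 4.91 in WT with IgM, 30.9, 30.4 and 33.2 in untreated Y691F and 5.003, 5.85 and 5.197 in Y691F with IgM. Its IgM libraries were all below its untreated ones, at -2.35 ± 0.089 (SE, adjusted p = 1.76e-40) and -2.55 ± 0.084 (SE, adjusted p = 6.94e-45). LINC00954, listed among lymphocyte lncRNAs, measured 39.1, 40.8 and 41.7 CPM in untreated WT libraries, 5.87, 7.61 and 6.57 in WT with IgM, 37.1, 28.2 and 31.9 in untreated Y691F and 4.61, 4.45 and 4.06 in Y691F with IgM. It fell, with a log2 change of -2.59 ± 0.086 (SE, adjusted p = 1.35e-38) and -2.89 ± 0.10 (SE, adjusted p = 2.58e-38). The promoter of RP11-16E12.2 is shown as the strongest fall among the 10 most abundant members; the window is chr15:31230813-31231112 on the minus strand (RefSeq, GRCh38.p14), with the E-box letters in capitals.

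RP11-16E12.2: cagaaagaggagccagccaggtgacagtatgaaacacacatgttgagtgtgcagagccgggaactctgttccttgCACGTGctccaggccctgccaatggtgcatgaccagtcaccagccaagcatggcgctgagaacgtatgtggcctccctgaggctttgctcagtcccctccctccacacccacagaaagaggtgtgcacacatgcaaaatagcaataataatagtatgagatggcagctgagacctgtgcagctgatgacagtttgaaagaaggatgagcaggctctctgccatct

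DUBR (chr3:107240692-107326964, plus strand), a lincRNA first described at DPPA2, measured 8.32, 7.25 and 8.43 CPM in untreated WT libraries, 0.898, 0.756 and 0.383 in WT with IgM, 7.04, 7.56 and 7.201 in untreated Y691F and 0.723, 0.805 and 1.01 in Y691F with IgM. The conditions did not overlap in either kind of cells, and it fell, with a log2 change of -3.52 ± 0.19 (SE, adjusted p = 3.62e-30) in WT and -3.102 ± 0.18 (SE, adjusted p = 1.01e-27) in Y691F. AC007381.3 (MIR4432HG), near the transcription factor gene BCL11A, measured 5.19, 5.38 and 4.93 CPM in untreated WT libraries, 0.479, 0.486 and 0.128 in WT with IgM, 6.303, 6.47 and 6.95 in untreated Y691F and 0.5003, 0.805 and 0.444 in Y691F with IgM. It fell to under 1 CPM in all 6 IgM libraries, with a log2 change of -3.77 ± 0.24 (SE, adjusted p = 1.90e-25) and -3.46 ± 0.20 (SE, adjusted p = 1.24e-27). RP13-494C23.1, inside SMIM20 on the other strand, went from 4.98, 4.45 and 5.39 to 0.479, 0.324 and 0.574 CPM in WT cells, and LINC00282 (now the protein-coding gene TMEM272) from 3.07, 2.63 and 2.58 to 0.1796, 0.216 and 0.0638. Both fell in Y691F cells as well, with a log2 change of -2.72 ± 0.18 (SE, adjusted p = 3.38e-24) and -4.695 ± 0.40 (SE, adjusted p = 9.29e-19). RP4-536B24.3 and RP4-536B24.4, neighbours beside KLHDC4, had the largest falls in WT cells: RP4-536B24.3 had 188 reads over the 3 untreated WT libraries and 3 over the 3 with IgM. The ratio of their depth-scaled levels was 59.6, with a 95% counting interval of 20.1 to 291. RP4-536B24.4 went from 2.33, 2.49 and 3.27 to 0.1796, 0.05399 and 0.0638 CPM (-4.68 ± 0.40 SE, adjusted p = 1.53e-18). RP11-87C12.5, opposite BCL7A, and RP11-160E2.19 completed the largest falls in Y691F cells, at -3.81 ± 0.30 (SE, adjusted p = 1.84e-20) and -3.57 ± 0.23 (SE, adjusted p = 6.58e-25).

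Among the other abundant or well-known members, changes ran from near 0 to about the size typical of a called member, a median log2 size of 0.93 in WT and 0.99 in Y691F cells. NORAD (chr20:36045622-36050960, minus strand) measured 94.1, 101 and 93.2 CPM in untreated WT libraries, 81.4, 83.4 and 82.8 in WT with IgM, 106, 110.5 and 110.0 in untreated Y691F and 88.8, 85.4 and 81.3 in Y691F with IgM. It fell slightly, with a log2 change of -0.22 ± 0.039 (SE, adjusted p = 4.99e-07) in WT and -0.35 ± 0.038 (SE, adjusted p = 8.39e-14) in Y691F cells, and untreated Y691F cells held more than untreated WT cells by 0.18 ± 0.037 (SE, adjusted p = 5.30e-05). EBLN3 measured 86.1, 87.98 and 84.8 CPM in untreated WT libraries, 83.2, 85.04 and 84.2 in WT with IgM, 80.9, 71.9 and 81.2 in untreated Y691F and 79.6, 80.1 and 76.5 in Y691F with IgM, with overlapping conditions and log2 changes of -0.037 ± 0.040 and 0.013 ± 0.041 (adjusted p = 0.405 and 0.780), which became -0.17 and -0.16 when libraries were scaled by their totals alone. RP11-159G9.5 rose by 0.43 ± 0.051 (SE, adjusted p = 3.15e-12) and 0.39 ± 0.052 (SE, adjusted p = 3.10e-10). EPB41L4A-AS1 rose by 0.51 ± 0.079 (SE, adjusted p = 1.24e-08) in WT and by 0.33 ± 0.081 (SE, adjusted p = 0.000236) in Y691F cells. With libraries scaled by their totals alone, its Y691F call was lost (0.16, adjusted p = 0.0756). RP11-160O5.1 passed in Y691F cells alone, where it went from 5.66, 6.78 and 4.58 to 8.339, 9.49 and 9.06 CPM (0.66 ± 0.11 SE, adjusted p = 1.58e-07; WT -0.050 ± 0.12 SE, adjusted p = 0.707). CTB-193M12.5 and PVT1 did not pass in either kind of cells (WT -0.14 ± 0.091 and 0.21 ± 0.10, adjusted p = 0.152 and 0.0527). PVT1 passed in WT cells without untreated WT replicate 2 (0.28, adjusted p = 0.0326) or replicate 3 (0.26, adjusted p = 0.0337), over a range of 0.0326 to 0.484. CRNDE fell, with a log2 change of -0.52 ± 0.15 (SE, adjusted p = 0.00120) and -0.92 ± 0.14 (SE, adjusted p = 8.03e-09). LINC00926, a lincRNA of B cells, measured 9.86, 10.6 and 9.696 CPM in untreated WT libraries, 5.45, 5.72 and 4.65 in WT with IgM, 8.42, 6.94 and 7.65 in untreated Y691F and 3.89, 4.51 and 3.11 in Y691F with IgM. Its conditions did not overlap, and it fell, with a log2 change of -0.93 ± 0.11 (SE, adjusted p = 4.71e-12) and -0.99 ± 0.12 (SE, adjusted p = 2.87e-11).

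Among members, protein-coding and antisense genes alike, median changes were below 0 from 1 to 20 CPM and above 0 at 20 CPM or more. Within the range from 1 to 20 CPM the medians did not follow level evenly. Members were therefore set beside genes of the same level. At 1 to 2 CPM the median log2 change with IgM in WT cells was -0.37 over 117 members, -0.40 over 573 protein-coding genes and -0.61 over 148 antisense genes. At 2 to 5 CPM it was -0.45 over 108 members and -0.35 over 970 protein-coding genes. At 5 to 20 CPM it was -0.29 over 69 members and -0.066 over 2621 protein-coding genes, with 55.1% of the members and 44.6% of the protein-coding genes lower. The shares lower were 41.0% of members and 45.9% of protein-coding genes at 1 to 2 CPM, 53.7% of members and 485 of 970 protein-coding genes at 2 to 5 CPM, and 33.3% and 37.1% in that order at 20 CPM or more. At 20 CPM or more it was 0.016 over 15 members and 0.11 over 6661 protein-coding genes. In Y691F cells the medians were -0.52 and -0.33, -0.56 and -0.37, -0.46 and -0.12, and 0.17 and 0.12 for members and protein-coding genes in the same bins, and the shares lower were 49.6% and 45.2%, 57.4% and 51.6%, 59.4% and 46.6%, and 33.3% and 35.2%. The part of level in the members' falls was not tested beyond these bins.

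**Figure D3:**
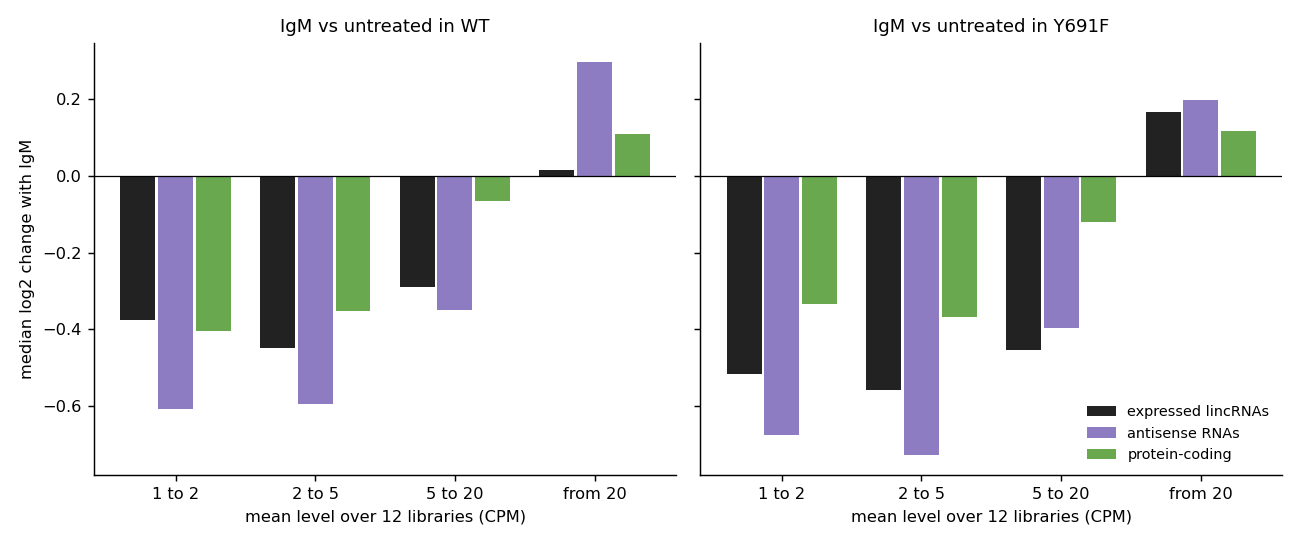
Median log2 change with IgM (bars from 0) of the expressed lincRNAs, antisense RNAs and protein-coding genes in 4 bins of mean level over 12 libraries (CPM), for WT cells on the left and Y691F cells on the right. All 3 classes have medians below 0 from 1 to 20 CPM, and the members' median is below the protein-coding one from 2 to 20 CPM in both panels.

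LincRNAs that start head to head with a coding gene mostly fell while most of their coding partners rose. Of the 309 members, 65 overlap the span of their nearest protein-coding gene, 119 lie within 10000 bases of it and 125 lie beyond. A head-to-head arrangement, with starts within 1000 bases on opposite strands, was found for 58. With IgM in WT cells 9 of these 58 rose and 36 fell (median log2 change -0.62), while of their coding partners 37 rose and 18 fell (median 0.31). Over all tested protein-coding genes 41.95% rose and 40.67% fell, and among those at 20 CPM or more 51.4% rose. The other 251 members had 62 higher and 113 lower (median -0.22). A split in this direction was not limited to head-to-head pairs. Members within 10000 bases of their nearest coding gene, without overlap, had a median of -0.40 over 115 pairs. Their neighbours had 0.17, with 64 higher and 38 lower. Over all 253 tested pairs the medians were -0.37 and 0.099, with 123 neighbours higher and 98 lower. In 20 pairs the lincRNA fell and the partner rose, in 14 both fell, in 8 both rose and in 1 the lincRNA rose and the partner fell. The lincRNA's log2 change was below its partner's in 47 of 58 pairs, with a median difference of -0.849. In Y691F cells it was below in 52 of 58, with a median difference of -0.963, and 22 pairs had a falling lincRNA and a rising partner. The 2 changes of a pair still correlated in WT cells (Pearson's r of 0.578, Spearman's rho of 0.45 over 58 pairs), as did those of members within 10000 bases (r of 0.494, 115 pairs) and beyond (r of 0.336, 89 pairs), while those overlapping their neighbour had an r of 0.202 (49 pairs). These are descriptions over genes, which share libraries and regions.

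**Figure D4:**
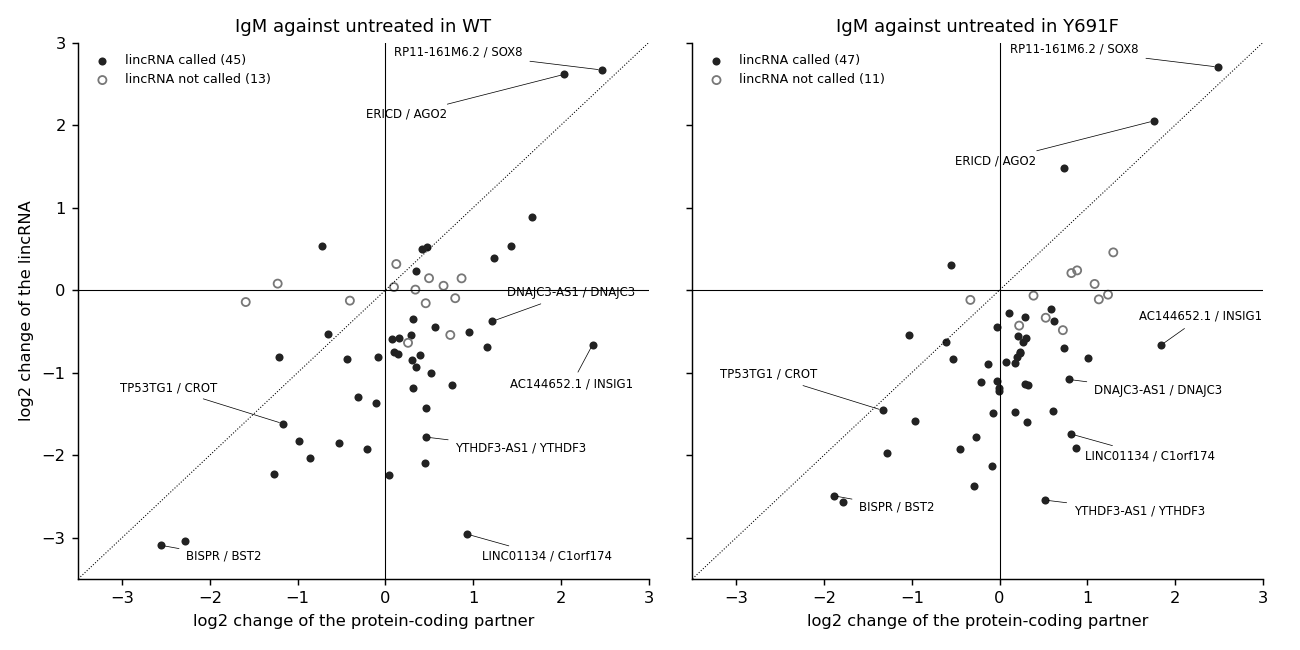
Log2 change with IgM of the protein-coding partner (x axis) against the head-to-head lincRNA (y axis), 1 point per pair, filled where the lincRNA was called, in WT cells (left) and Y691F cells (right), with a dotted line of equal change. In WT cells 47 of 58 points and in Y691F cells 52 of 58 lie below the line.

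LINC01134 (chr1:3900372-3917225, plus strand) has its start 79 bases from that of C1orf174 on the other strand. It measured 8.59, 8.901 and 9.75 CPM in untreated WT libraries, 0.838, 1.19 and 1.47 in WT with IgM, 9.98, 9.58 and 9.62 in untreated Y691F and 2.67, 3.004 and 3.04 in Y691F with IgM. IgM took it down without overlap in both kinds of cells, with a log2 change of -2.96 ± 0.16 (SE, adjusted p = 3.51e-30) in WT and -1.74 ± 0.12 (SE, adjusted p = 1.30e-22) in Y691F, while C1orf174 rose by 0.93 and 0.81 (adjusted p = 3.48e-27 and 4.73e-23). Their shared start region is shown from LINC01134's side, chr1:3900154-3900453 on the plus strand (RefSeq, GRCh38.p14), and holds none of the searched letters.

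LINC01134: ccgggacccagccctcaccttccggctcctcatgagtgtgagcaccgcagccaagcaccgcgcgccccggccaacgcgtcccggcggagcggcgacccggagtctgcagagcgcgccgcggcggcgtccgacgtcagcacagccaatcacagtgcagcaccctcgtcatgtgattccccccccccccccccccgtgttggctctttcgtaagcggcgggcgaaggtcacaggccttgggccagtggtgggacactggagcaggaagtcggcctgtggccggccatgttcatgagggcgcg

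Other pairs moved apart or together. TP53TG1, a p53 target lincRNA, measured 6.15, 4.05 and 4.82 CPM in untreated WT libraries, 1.44, 1.94 and 1.403 in WT with IgM, 5.29, 5.28 and 5.04 in untreated Y691F and 2.11, 1.502 and 2.09 in Y691F with IgM, without overlap between conditions. It fell, with a log2 change of -1.62 ± 0.18 (SE, adjusted p = 1.61e-13) and -1.46 ± 0.17 (SE, adjusted p = 8.99e-13), and its partner CROT, a peroxisomal acyltransferase gene, fell with it, with a log2 change of -1.17 and -1.33. RP11-161M6.2 and SOX8 rose together, SOX8 by 2.47 in WT cells, as did ERICD and AGO2, AGO2 by 2.04. RP11-670E13.6 fell, with a log2 change of -0.81 ± 0.23 (SE, adjusted p = 0.000932) in WT cells beside TRIM25, which measured 152 ± 1.93 CPM untreated and 65.6 ± 1.64 with IgM. The following 4 pairs were chosen after their values were seen. BISPR, named for its interferon-stimulated partner BST2, measured 8.53, 8.54 and 8.204 CPM in untreated WT libraries, 1.26, 0.8099 and 0.893 in WT with IgM, 8.097, 7.15 and 7.05 in untreated Y691F and 1.17, 1.18 and 1.65 in Y691F with IgM and fell, with a log2 change of -3.09 ± 0.17 (SE, adjusted p = 1.89e-29) in WT cells. AC144652.1 (INSIG1-DT) fell, with a log2 change of -0.66 ± 0.15 (SE, adjusted p = 7.88e-05) while its partner INSIG1, a brake on sterol synthesis, had a log2 change of 2.36. YTHDF3-AS1 fell, with a log2 change of -1.78 ± 0.28 (SE, adjusted p = 1.87e-08) beside YTHDF3, an m6A reader, at 0.47. DNAJC3-AS1 fell, with a log2 change of -0.38 ± 0.16 (SE, adjusted p = 0.0242) beside the chaperone gene DNAJC3 at 1.22. This lincRNA missed the threshold without WT replicate 3 untreated (-0.33, adjusted p = 0.0822) or with IgM (-0.30, adjusted p = 0.114), over a range of 0.00254 to 0.114. DESeq2's Wald test lost the call too (-0.39, adjusted p = 0.0654).

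Members also sit near each other: 44 lie in 21 clusters with gaps of at most 50000 bases, none with over 3 members. With IgM in WT cells 11 clusters had at least 2 members called, and in 3 of these they were called in opposite directions; in Y691F cells the counts were 12 and 4. A gene on the same strand overlaps 73 members and one on the other strand 131, and 146 overlap none. Those overlapping none had 29 higher and 76 lower with IgM in WT cells (median -0.43), and those sharing a strand with another gene 17 higher and 33 lower (median -0.20). By exon number, 102 single-exon members had 22 higher and 40 lower (median -0.19), 94 with 2 or 3 exons had 27 and 52 (median -0.50), and 105 with 4 or more had 20 and 55 (median -0.32). Beside these counts, 38.4% of all tested genes rose and 38.5% fell with IgM in WT cells. The share of single-exon members that fell was close to that background. Clusters were counted for members only, so their counts have no background beside them.

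The search for microRNA hairpins in RefSeq did not cover every member, so hosts among the rest were not counted. It found 7 members with a hairpin within their span, and 3 of them rose in both kinds of cells. Over all 309 members, 55 rose in both, and of all tested genes 38.4% rose in WT and 37.1% in Y691F cells. AC007381.3 (MIR4432HG), which fell in both, was not among the 7. These 7 members were picked out after their values were seen, and the libraries measure the host transcript, not the microRNA. The mature sequences are shown because 2 different host genes carry microRNAs with the same seed (bases 2 to 8, in capitals).

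hsa-miR-29c-3p: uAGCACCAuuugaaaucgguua

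hsa-miR-29b-3p: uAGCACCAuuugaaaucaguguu

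hsa-miR-9-5p: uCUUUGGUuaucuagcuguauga

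C1orf132 (MIR29B2CHG, chr1:207801518-207869150, minus strand), the host of miR-29c and miR-29b-2, measured 32.8, 34.2 and 37.9 CPM in untreated WT libraries, 105, 98.97 and 98.2 in WT with IgM, 45.3, 38.6 and 40.1 in untreated Y691F and 87.9, 98.3 and 74.8 in Y691F with IgM. All 6 IgM libraries were above all 6 untreated ones, at 1.53 ± 0.10 (SE, adjusted p = 3.65e-07) in WT and 1.08 ± 0.10 (SE, adjusted p = 5.48e-06) in Y691F cells. AC058791.1 (chr7:130876809-130913310, minus strand), the host of miR-29b-1, measured 1.48, 1.07 and 1.32 CPM in untreated WT libraries, 8.201, 6.803 and 6.89 in WT with IgM, 1.52, 1.502 and 1.51 in untreated Y691F and 4.78, 3.92 and 3.36 in Y691F with IgM. It rose in both, by 2.51 ± 0.17 (SE, adjusted p = 1.40e-24) and 1.42 ± 0.18 (SE, adjusted p = 3.32e-11), and with IgM the Y691F libraries were all below the WT ones (-0.85 ± 0.13 SE, adjusted p = 7.43e-08). LINC00461 (chr5:88507546-88691041, minus strand), the host of miR-9-2 near the transcription factor gene MEF2C, measured 2.17, 2.54 and 2.07 CPM in untreated WT libraries, 7.96, 9.72 and 9.05 in WT with IgM, 1.93, 2.12 and 2.11 in untreated Y691F and 3.78, 4.77 and 3.68 in Y691F with IgM. Its untreated groups overlapped, its IgM groups did not, and it rose by 1.97 ± 0.14 (SE, adjusted p = 4.28e-23) in WT and 0.996 ± 0.17 (SE, adjusted p = 1.04e-07) in Y691F cells. LINC00969 (miR-570) fell, with a log2 change of -0.19 ± 0.051 (SE, adjusted p = 0.000784) and -0.14 ± 0.050 (SE, adjusted p = 0.0117). DKFZP434I0714 (miR-4453) fell in Y691F cells (-0.70 ± 0.13 SE, adjusted p = 3.24e-06), and RP11-631N16.2 (let-7i) and RP4-806M20.4 (miR-296) passed in neither kind of cells. In Y691F cells LINC00969 missed the threshold without untreated replicate 1 (-0.092, adjusted p = 0.130) or replicate 3 with IgM (-0.075, adjusted p = 0.197), over a range of 4.12e-07 to 0.197. RP11-631N16.2 passed as lower in WT cells without untreated WT replicate 1 (-0.45, adjusted p = 0.0146) or untreated Y691F replicate 2 (-0.33, adjusted p = 0.0495), over a range of 0.0087 to 0.332. In Y691F cells it passed without untreated replicate 2 (-0.36, adjusted p = 0.0347), over a range of 0.0306 to 0.663. Scaling by library totals alone also made it pass, at -0.46 (adjusted p = 0.0087) in WT and -0.36 (adjusted p = 0.0306) in Y691F cells.

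Fewer lincRNAs differed between the cells with the 2 Roquin2 forms than between IgM and untreated. With IgM, 40 members were higher and 36 lower in Y691F than in WT cells, 12.9% and 11.7%, against 21.9% and 20.2% of all tested genes. Untreated, 53 were higher and 16 lower, 17.2% and 5.18%, against 15.1% and 16.1%; DESeq2's Wald test called 30 higher. At 2-fold or more, 15 were higher and 4 lower with IgM, and 9 higher and 0 lower untreated. Over all 15112 tested genes, 491 were higher and 197 lower with IgM, and 287 higher and 129 lower untreated. Medians were -0.012 with IgM and 0.093 untreated, beside -0.0049 and -0.0078 over all tested genes. Untreated, more of the other 988 tested lincRNA and antisense genes were higher (111) than lower (43) as well (median 0.09025). At 1 to 2 CPM, 93 of 573 protein-coding genes were higher and 40 lower (median 0.1152). Of 117 members at that level, 9 were higher and 6 lower (median 0.08261). At 2 to 5 CPM the medians were 0.1101 over members and 0.06983 over protein-coding genes. They were 0.1009 and 0.01013 at 5 to 20 CPM, and -0.007794 and -0.02945 from 20 CPM. The libraries did not overlap for 72 of the 76 called with IgM and 64 of the 69 called untreated, a count not made over all tested genes. The comparisons use separate libraries: 17 members were higher in both, 7 lower in both, 93 called in 1 condition only and 190 in neither. These joint calls were not counted over all tested genes, so no share can be set beside them. NEAT1 and LINC01136 were called higher untreated and lower with IgM. The untreated call of LINC01136 was lost without WT replicate 3 (0.24, adjusted p = 0.217) or Y691F replicate 1 (0.29, adjusted p = 0.138) or 2 (0.26, adjusted p = 0.171), over a range of 0.00387 to 0.217. DESeq2's Wald test (adjusted p = 0.102) and limma-voom (adjusted p = 0.0546) lost that call too. Over the 309 members the log2 differences correlated with r of 0.454 and rho of 0.261, and 182 had the same sign.

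**Figure D5:**
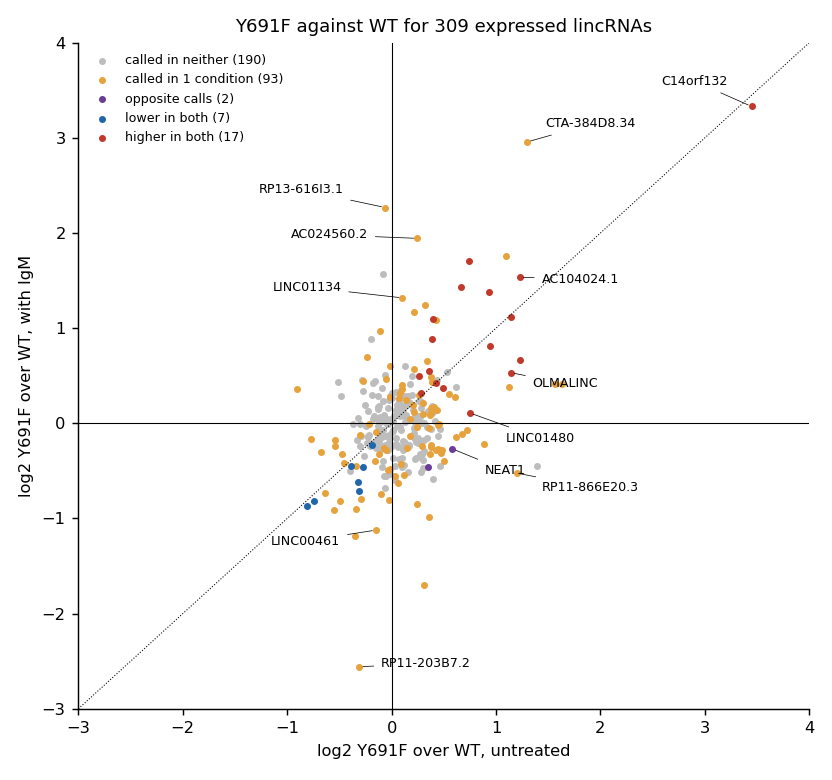
Log2 difference of Y691F from WT cells when untreated (x axis) and with IgM (y axis), 1 point per member, coloured by the calls in both comparisons. C14orf132 stands alone at upper right, above 3 on both axes; most points lie near 0 on both.

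C14orf132 (chr14:96039324-96094080, plus strand; annotated as protein-coding in GENCODE 29) differed most. It measured 0.318, 0.356 and 0.688 CPM in untreated WT libraries, 0.1197, 0.108 and 0.0638 in WT with IgM, 4.46, 4.505 and 5.74 in untreated Y691F and 1.33, 1.07 and 0.697 in Y691F with IgM. Y691F was above WT without overlap under both conditions, by 3.45 ± 0.23 (SE, adjusted p = 5.75e-23) untreated and 3.33 ± 0.50 (SE, adjusted p = 3.02e-08) with IgM, and IgM lowered it in both kinds of cells. AC104024.1, beside TNFRSF13B, was higher by 1.23 ± 0.15 (SE, adjusted p = 1.05e-10) and 1.54 ± 0.10 (SE, adjusted p = 6.71e-24). AC007386.2 (LINC02245) measured 1.43, 1.91 and 2.07 CPM in untreated WT libraries, 0.599, 0.648 and 0.446 in WT with IgM, 4.32, 3.62 and 4.03 in untreated Y691F and 1.11, 1.29 and 1.33 in Y691F with IgM, again with Y691F above WT in both conditions, by 1.15 ± 0.17 (SE, adjusted p = 2.62e-08) and 1.11 ± 0.31 (SE, adjusted p = 0.00194). OLMALINC (chr10:100373615-100383368, plus strand), known from oligodendrocytes and from the regulation of its neighbour SCD, measured 6.52, 7.03 and 7.69 CPM in untreated WT libraries, 5.81, 5.99 and 5.48 in WT with IgM, 16.4, 14.8 and 15.5 in untreated Y691F and 9.01, 8.099 and 7.92 in Y691F with IgM. It differed by 1.14 ± 0.088 (SE, adjusted p = 1.61e-19) untreated and 0.53 ± 0.11 (SE, adjusted p = 4.20e-05) with IgM, and none of the Y691F libraries overlapped WT. SCD, the gene of stearoyl-CoA desaturase, ends 8781 bases before OLMALINC on the same strand and measured 264 ± 5.45 CPM in untreated WT, 497 ± 17.7 in untreated Y691F, 515 ± 5.78 in WT with IgM and 889 ± 19.5 in Y691F with IgM (SD, n = 3). SCD thus rose with IgM where OLMALINC fell, and both were higher in Y691F cells.

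Several members that were higher in Y691F cells with IgM were ones that IgM had lowered less there. AC024560.2 (chr3:197660565-197665757, minus strand), beside the autophagy gene RUBCN, measured 4.24, 5.61 and 4.99 CPM in untreated WT libraries, 1.197, 0.8099 and 1.08 in WT with IgM, 6.67, 5.59 and 5.39 in untreated Y691F and 3.39, 4.34 and 4.12 in Y691F with IgM. Only the IgM groups separated by Roquin2 form, at 1.94 ± 0.21 (SE, adjusted p = 3.73e-13), and the difference in response was 1.698 ± 0.25 (SE, adjusted p = 3.84e-08). RP13-616I3.1 (LINC02012), on the same chromosome arm beside BDH1, measured 2.44, 2.14 and 2.18 CPM in untreated WT libraries, 0.299, 0.05399 and 0.191 in WT with IgM, 2.21, 1.92 and 2.32 in untreated Y691F and 0.945, 0.965 and 0.697 in Y691F with IgM. It followed the same pattern, with 2.27 ± 0.45 (SE, adjusted p = 1.50e-05) with IgM and -0.063 ± 0.19 (SE, adjusted p = 0.839) untreated. LINC01484 measured 4.13, 3.34 and 4.25 CPM in untreated WT libraries, 0.958, 0.702 and 1.403 in WT with IgM, 6.72, 6.73 and 5.99 in untreated Y691F and 3.78, 3.004 and 3.04 in Y691F with IgM. It was higher in Y691F cells under both conditions, by 0.74 ± 0.13 (SE, adjusted p = 1.85e-06) and 1.704 ± 0.22 (SE, adjusted p = 2.57e-10). RP11-147L13.8 differed by 1.43 ± 0.30 (SE, adjusted p = 3.73e-05) with IgM and already by 0.67 untreated (adjusted p = 1.42e-05), and its difference in response did not pass (0.76, adjusted p = 0.0807). With IgM, RP11-16E12.2 differed by 0.89 ± 0.17 (SE, adjusted p = 5.75e-06) and LINC01134 by 1.32 ± 0.21 (SE, adjusted p = 1.24e-07). CTA-384D8.34 and AC104024.2, which IgM raised, were higher in Y691F cells with IgM by 2.96 ± 0.21 and 1.76 ± 0.19 (adjusted p = 8.16e-22 and 4.97e-13).

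The lower values with IgM were led by RP11-203B7.2 (chr4:146052604-146056762, minus strand), which measured 4.13, 3.78 and 4.42 CPM in untreated WT libraries, 0.718, 0.486 and 0.956 in WT with IgM, 3.54, 2.8997 and 3.42 in untreated Y691F and 0.167, 0 and 0.1901 in Y691F with IgM. One Y691F library with IgM had no read, and the IgM groups did not overlap (-2.56 ± 0.53 SE, adjusted p = 3.50e-05). RP11-367G6.3 measured 1.17, 1.34 and 0.631 CPM in untreated WT libraries, 1.38, 1.08 and 1.53 in WT with IgM, 1.56, 0.932 and 1.46 in untreated Y691F and 0.778, 0.161 and 0.254 in Y691F with IgM. It fell with IgM in Y691F cells alone by call (-1.71 ± 0.36 SE, adjusted p = 1.43e-05; WT 0.30 ± 0.28 SE, adjusted p = 0.342). It lies within FAM65B on the same strand, so reads of the 2 genes may be mixed. AC079767.4 (LINC01857) differed by -1.18 ± 0.23 (SE, adjusted p = 1.28e-05), LINC00461 by -1.12 ± 0.12 (SE, adjusted p = 1.42e-12), LINC01572 by -0.98 ± 0.28 (SE, adjusted p = 0.00292) and RP11-384O8.1 by -0.91 ± 0.24 (SE, adjusted p = 0.000951). AC073046.25, 61 bases from TET3 on the same strand, differed by -0.90 ± 0.21 (SE, adjusted p = 0.000172); reads running on from one gene into the other would be counted with either. BCYRN1, a short Alu-derived cytoplasmic RNA made by RNA polymerase III, differed by -0.87 ± 0.17 (SE, adjusted p = 1.88e-05), and its reads may come from other Alu copies.

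Untreated, the further higher members were ERICD (1.23 ± 0.37 SE, adjusted p = 0.00619), RP1-86C11.7 in the histone cluster of chromosome 6 (1.57 ± 0.38 SE, adjusted p = 0.000707) and RP11-866E20.3 (1.198 ± 0.28 SE, adjusted p = 0.000453), all under 2 CPM in untreated libraries. LINC01554 was higher by 1.63 ± 0.48 (SE, adjusted p = 0.00482); without Y691F untreated replicate 1 the difference was 1.32 with adjusted p = 0.0683, the highest over its alternatives, which began at 0.00353. Lower in untreated Y691F cells were RP4-539M6.22 (-0.90 ± 0.23 SE, adjusted p = 0.00118), LINC00431 (-0.77 ± 0.24 SE, adjusted p = 0.00725), RP11-670E13.6 (-0.74 ± 0.21 SE, adjusted p = 0.00438), C2orf48 beside the ribonucleotide reductase gene RRM2 (-0.68 ± 0.19 SE, adjusted p = 0.00375), LINC00304 (-0.54 ± 0.10 SE, adjusted p = 2.50e-06) and LINC00926 (-0.39 ± 0.10 SE, adjusted p = 0.000958). LINC00304 measured 10.4, 11.3 and 12.9 CPM in untreated WT libraries, 6.11, 6.26 and 6.31 in WT with IgM, 8.97, 7.25 and 7.402 in untreated Y691F and 5.61, 6.11 and 4.75 in Y691F with IgM. Its untreated groups separated and its IgM groups overlapped. BCYRN1 (-0.81 ± 0.24 SE, adjusted p = 0.00474) lost its call without untreated WT replicate 2 (-0.65, adjusted p = 0.0723) or Y691F replicate 3 (-0.52, adjusted p = 0.103), over a range of 0.000555 to 0.103. RP11-471M2.3 (-0.54 ± 0.22 SE, adjusted p = 0.0465) lost it in several alternatives, among them without untreated WT replicate 2 (-0.37, adjusted p = 0.309), WT replicate 2 with IgM (-0.54, adjusted p = 0.0504) and untreated Y691F replicate 1 (-0.61, adjusted p = 0.0619) or 2 (-0.36, adjusted p = 0.254), over a range of 0.0279 to 0.309.

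The IgM response itself differed between the cells for some members. It was higher in Y691F for 13 (4.21% of members, against 14.7% of all tested genes). It was lower for 34, and this share of 11.0% was the same as the 11.0% of all tested genes. DESeq2's Wald test called 16 lower. The median over members was -0.10, beside 0.0069 over all tested genes. Of the 13 with the higher response in Y691F cells, 10 had fallen with IgM in WT cells, 7 of them also in Y691F cells, and the change was larger in size in WT for 10. Of the 34 with the lower response, 13 had risen in WT cells, 10 of these also in Y691F, 12 had fallen in both and 9 had fallen in Y691F cells only. NUP50-AS1 (NUP50-DT), called in opposite directions, measured 10.1, 10.6 and 9.696 CPM in untreated WT libraries, 11.6, 11.6 and 12.7 in WT with IgM, 9.29, 9.89 and 10.6 in untreated Y691F and 9.23, 8.796 and 7.23 in Y691F with IgM. Its response differed by -0.46 ± 0.13 (SE, adjusted p = 0.00556). LINC01136 (BTG2-DT), head to head with the antiproliferative gene BTG2, measured 4.88, 5.16 and 3.79 CPM in untreated WT libraries, 10.1, 7.67 and 8.16 in WT with IgM, 6.35, 6.63 and 4.78 in untreated Y691F and 6.28, 5.85 and 6.65 in Y691F with IgM. It rose in WT cells by 0.89 ± 0.12 (SE, adjusted p = 1.06e-09) and had 0.075 ± 0.12 (SE, adjusted p = 0.590) in Y691F cells, a difference of -0.81 ± 0.18 (SE, adjusted p = 0.000160). This test uses the libraries of all the comparisons already described and is not separate evidence.

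The genes that house, process and degrade these RNAs moved as follows. Medians are to be read beside 0.0016 in WT and -0.011 in Y691F cells over all tested genes. Counts are to be read beside 38.4% of all tested genes higher and 38.5% lower with IgM in WT cells, and 37.1% and 38.7% in Y691F cells. Of 29 paraspeckle protein genes tested, 15 rose and 8 fell with IgM in WT cells and 16 rose and 8 fell in Y691F cells (medians 0.11 and 0.095). Among NEAT1's direct partners, SFPQ changed by 0.29 (adjusted p = 5.77e-15) and NONO by -0.36 (adjusted p = 3.84e-21) in WT cells. Of 26 nuclear speckle genes, which surround MALAT1, 23 rose and 2 fell and 24 rose and 1 fell (medians 0.35 and 0.40), with the splicing factor SRSF3 at 0.83 (adjusted p = 4.14e-43). Of 27 genes of the nuclear RNA exosome and its adaptors, which remove unstable lincRNAs, 20 rose and 3 fell and 21 rose and 3 fell (medians 0.36 and 0.29), and with IgM 1 was higher and 12 were lower in Y691F than in WT cells, beside 21.9% and 20.2% of all tested genes. Of 27 genes of 3′-end formation and MALAT1 processing, 18 rose and 2 fell and 20 rose and 2 fell (medians 0.25 and 0.32), with the termination factor PCF11 at 0.84 (adjusted p = 1.27e-38). Of 12 PRC2 genes, 5 rose and 5 fell and 6 rose and 4 fell.

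Lists of lincRNAs by reported link were small once limited to tested genes. Beside them, 38.4% of all tested genes rose and 38.5% fell with IgM in WT cells, and 37.1% and 38.7% in Y691F cells. Of 7 linked to NF-kB, 3 of them members, 4 rose and 1 fell in WT cells and 4 rose and 2 fell in Y691F cells. Of 5 linked to p53, 3 of them members, 3 rose and 2 fell and 3 rose and 2 fell. Of 6 linked to hypoxia, 4 of them members, 5 rose and 1 fell and 4 rose and 1 fell. MALAT1, NEAT1, LINC00152 and TP53TG1 are on these lists, which were written with earlier results of these data known. Of 14 lymphocyte lncRNAs, 7 of them members, 4 rose and 10 fell in WT and 4 rose and 10 fell in Y691F cells (medians -0.92 and -1.15). Among the members on it, LINC00426 went from 5.78 ± 0.245 to 10.7 ± 1.02 CPM in WT cells (SD, n = 3; 0.89 ± 0.10 SE, adjusted p = 2.51e-12), and LINC00528 from 6.202 ± 0.5197 to 2.2005 ± 0.598 (-1.496 ± 0.16 SE, adjusted p = 1.55e-13).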

How the data were processed

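Total RNA from 12 cultures of U-2932 cells was fragmented and reverse transcribed with random primers, with dUTP in the second strand to keep strand information, and the libraries are described as polyA+, per the labels' protocols. The deposited table gives, for each library, the authors' read count and the authors' RPKM per Ensembl gene, per the file headers. STAR 2.5.0b, DESeq2 and GRCh38 are named in the submitters' processing notes; the read counter, its strand setting, the annotation release and the length behind RPKM were not given in the sources used here. No row was pooled over libraries, and all per-library columns matched a labelled sample.

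Counts as deposited were tested with edgeR 4.0.16 in R 4.3.3 (TMM factors, filterByExpr, robust quasi-likelihood fit of all 12 libraries with 1 coefficient per group). P-values were Benjamini-Hochberg adjusted over the 15112 tested genes and called at 0.05. SEs were derived from the fitted log2 change and its F statistic (the change over the root of F). CPM are TMM-scaled, and levels between genes were compared on the deposited RPKM. The fit was tested on simulated data. Alternatives used DESeq2 1.42.0, limma 3.58.1 (voom), other scaling and filters, a replicate block and each library left out in turn. Replicates were described as biological in the design text, and no pair of libraries was identical or within counting noise (chi-square over degrees of freedom 1.43 to 2.41). Gene positions are those of the deposited table; exon records came from GENCODE release 29 and promoters and microRNAs from RefSeq on GRCh38.p14. Python 3.11.15, pandas 2.3.3, NumPy 2.4.6, SciPy 1.17.1 and matplotlib 3.10.9 were used.

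The members and gene lists were chosen with earlier results of these data known. One of the gene lists is not reported here. Named are 14 well-known lincRNAs where they are members, the 10 members with the highest RPKM, the 8 largest rises and falls per comparison among called members whose 3 libraries per group did not overlap, the 6 largest differences in response per sign, the 5 genes on each side of the level limit, coding neighbours within 10000 bases and up to 4 genes per list; others given with values are said to be chosen after these were seen, and more distant neighbours are named by position only. Counting intervals cover counting error only.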

Additional observations from a re-analysis of the deposited data

Results flagged for a closer look

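The test of the difference between the IgM response in Y691F cells and that in WT cells passed for 27 of the named members, and its log2 value (Y691F response minus WT response) is given for each; no explanation was weighed. Among RNAs that IgM raised in both kinds of cells, the response was smaller in Y691F cells for NEAT1 (-0.85), LINC01480 (-0.64), LINC00461 (-0.97), AC003092.1 (-0.90), C12orf77 (-0.79), AC058791.1 (-1.09), LINC01160 (-1.096) and RP11-713N11.5 (-1.84). It was larger for LINC00152 (0.24), and RP11-160O5.1 (0.71) rose in Y691F cells alone by call.

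Among RNAs that IgM lowered in both, the fall was smaller in Y691F cells for RP13-616I3.1 (2.33), AC024560.2 (1.698), LINC01134 (1.21), LINC01484 (0.96) and RP11-16E12.2 (0.50), and larger for RP11-203B7.2 (-2.25), OLMALINC (-0.61) and DNAJC3-AS1 (-0.71). RP4-539M6.22 (1.26) and RP11-94I2.4 (1.09) fell by call in WT cells only. RP11-367G6.3 (-2.01), LINC01572 (-1.34), AC079767.4 (-0.83) and DKFZP434I0714 (-0.60) fell by call in Y691F cells only. RP11-866E20.3 (-1.72) and NUP50-AS1 (-0.46) were called higher in WT and lower in Y691F cells, and LINC01136 (-0.81) rose by call in WT cells only.

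Of these differences, 18 passed under every alternative run and 9 missed the threshold under 1 or more. LINC00152 missed the threshold without untreated WT replicate 2 (0.20, adjusted p = 0.0520; range over its alternatives 0.00157 to 0.052), and LINC01160 without untreated WT replicate 1 (-0.80, adjusted p = 0.0799) or replicate 2 (-0.94, adjusted p = 0.0519; range 0.000333 to 0.0799). RP11-713N11.5 missed it without untreated WT replicate 1 (-1.31, adjusted p = 0.155) or 3 (-1.92, adjusted p = 0.0507), WT replicate 2 with IgM (-1.76, adjusted p = 0.0522), untreated Y691F replicate 3 (-1.65, adjusted p = 0.103) or Y691F replicate 2 with IgM (-1.72, adjusted p = 0.0514; range 0.00885 to 0.155). RP11-94I2.4 missed it without untreated WT replicate 3 (0.97, adjusted p = 0.0612), WT replicate 3 with IgM (0.85, adjusted p = 0.0985) or Y691F replicate 1 with IgM (0.92, adjusted p = 0.0853; range 0.00669 to 0.0985). RP11-16E12.2 missed it without WT replicate 2 (0.48, adjusted p = 0.0810) or 3 (0.48, adjusted p = 0.0731) with IgM, or Y691F replicate 2 (0.501, adjusted p = 0.0533) or 3 (0.49, adjusted p = 0.0558) with IgM (range 0.0199 to 0.081). DKFZP434I0714 missed it without untreated WT replicate 3 (-0.49, adjusted p = 0.0643), WT replicate 2 with IgM (-0.53, adjusted p = 0.0632), untreated Y691F replicate 1 (-0.52, adjusted p = 0.0532) or Y691F replicate 1 with IgM (-0.52, adjusted p = 0.0563; range 0.00099 to 0.0644). DNAJC3-AS1 missed it without Y691F replicate 3 with IgM (-0.57, adjusted p = 0.0614; range 0.00572 to 0.0614). AC079767.4 missed it without untreated WT replicate 1, any 1 WT replicate with IgM, untreated Y691F replicate 1 or 3, or Y691F replicate 2 with IgM, the last giving the highest value (-0.61, adjusted p = 0.192; range 0.0221 to 0.192), and AC003092.1 without untreated WT replicate 1 or 3, WT replicate 1 or 2 with IgM, Y691F replicate 2 with IgM, or untreated Y691F replicate 2, the last giving the highest value (-0.63, adjusted p = 0.259; range 0.0214 to 0.259). Changes of method also lost calls. DESeq2's Wald test lost RP11-713N11.5 (adjusted p = 0.0602), RP11-94I2.4 (0.0694), DKFZP434I0714 (0.0644), DNAJC3-AS1 (0.0512), AC079767.4 (0.129) and AC003092.1 (0.0838). Without the filter on low counts, RP11-713N11.5 (0.0548), RP11-16E12.2 (0.0587), AC079767.4 (0.079) and AC003092.1 (0.0756) missed the threshold. With limma-voom, AC079767.4 (0.0504) and AC003092.1 (0.0685) did. Single outlying libraries were not searched for, since groups of 3 are too small for it.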

How the results depend on the processing

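Replicate numbers are shared between groups, and the labels do not say whether they pair the libraries. Same-numbered libraries had correlations of their deviations from group means between -0.0896 and 0.124 over 10011 genes. Differently numbered ones had -0.185 to 0.145, and 5 of 12 libraries correlated best with their own number. A pairing with a small shared effect could be missed by this check. With the replicate block, 38 members passed as higher and 35 as lower in Y691F with IgM, 50 and 15 untreated, 71 and 149 with IgM in WT, 62 and 166 with IgM in Y691F, and 13 and 35 in the difference of responses. Leaving out each library in turn gave 35 to 41 passing as higher and 30 to 37 as lower in Y691F with IgM, 39 to 54 and 14 to 17 untreated, 65 to 71 and 138 to 151 with IgM in WT, 56 to 65 and 152 to 166 with IgM in Y691F, and 10 to 16 and 23 to 35 in the difference of responses. Requiring 5 CPM in 3 libraries, which tests fewer members, gave 26 passing as higher and 20 as lower in Y691F with IgM, 8 lower untreated, 32 and 69 with IgM in WT, and 34 and 72 with IgM in Y691F. DESeq2's Wald test gave 30 higher in untreated Y691F cells and 16 lower in the difference of responses, and the cause was not tested. Scaling by library totals alone moved the median of all tested genes with IgM to -0.13 in WT and -0.18 in Y691F cells and gave 60 higher and 168 lower, and 47 and 182; under it EBLN3 turned from 0.013 to -0.16 with IgM in Y691F cells (adjusted p = 0.000543, range over its alternatives 0.000543 to 0.951). Of 186 named results, 152 kept direction and side of the threshold under every alternative run. A median member had 34 to 73 counts per library, which limits the precision of the rarer members.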
